A study of Mus musculus with 6 samples.

Results

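The genes described here drive cells through DNA replication and division. They were followed in tissue labelled as medial prefrontal cortex, a frontal region that helps to suppress learned fear, in mice on 2 diets. A list of 43 genes was used, drawn up with the differences between the diets on these arrays already known, so every difference of a listed gene is given as a description and not as a test. All probe sets (groups of short probes that read 1 transcript) annotated to exactly 1 listed gene were taken. That gave 99 probe sets of 42 genes, out of 45101 probe sets on the array. For Ccnb1, the cyclin B1 gene, no single-gene probe set was in the tables used.

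The ZnR mice were 3 males (mice 3, 7 and 11), for which the labels say only that they were zinc dieted, and the controls were 3 males on a control diet (mice 1, 5 and 9). All 6 were of the inbred strain 129S1/SvImJ, 8 to 10 weeks old, and all had been through fear extinction training, 2 h after which both hemispheres were sampled. What the ZnR diet contained was not stated in any source used. One array per mouse was hybridised, an Affymetrix Mouse430_2, and the values are log2 expression units, in which a step of 1 is a doubling.

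Division of a cell runs on rising and falling cyclins, which switch on cyclin-dependent kinases. The MCM helicase unwinds DNA for copying, mitotic kinases and motor proteins then build the spindle, and a ubiquitin ligase, the anaphase-promoting complex, ends mitosis by marking cyclins for destruction. Neurons of adult cortex no longer divide. In the adult rodent forebrain, dividing cells are mainly the progenitors of the subventricular zone beside the lateral ventricle and the oligodendrocyte precursors, with some dividing glia and vessel cells.

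Many promoters of such genes share short sequence elements. The CCAAT box is bound by the factor NF-Y, the cell cycle homology region is bound by MuvB complexes at mitotic genes, and E2F sites serve genes of DNA replication. The 250 bases before the start site are shown for the 4 genes with a probe set past the threshold of the array-wide fit described below, and for Top2a, which had the largest gene-level difference. Sequences are from RefSeq, build GRCm38.p6, on the strand of the gene. Capitals mark matches on either strand. The letters searched were CCAAT for the CCAAT box. For the cell cycle homology region they were TTTGAA. One core of E2F sites was searched as TTCCCGC. The other E2F core was searched as TTGGCGC.
Ube2c, chr2:164769679-164769928, plus strand: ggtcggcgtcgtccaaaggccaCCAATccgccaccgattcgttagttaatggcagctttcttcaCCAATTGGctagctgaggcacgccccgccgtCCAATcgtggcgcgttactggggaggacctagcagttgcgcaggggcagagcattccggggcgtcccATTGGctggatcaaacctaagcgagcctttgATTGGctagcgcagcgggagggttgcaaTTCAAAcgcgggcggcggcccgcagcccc
Cdc20, chr4:118437344-118437593, minus strand: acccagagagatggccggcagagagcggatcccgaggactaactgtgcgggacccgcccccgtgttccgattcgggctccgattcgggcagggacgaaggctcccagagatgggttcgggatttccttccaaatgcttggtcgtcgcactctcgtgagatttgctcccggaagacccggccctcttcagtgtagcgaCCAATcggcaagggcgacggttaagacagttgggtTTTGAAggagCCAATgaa
Top2a, chr11:99024190-99024439, minus strand: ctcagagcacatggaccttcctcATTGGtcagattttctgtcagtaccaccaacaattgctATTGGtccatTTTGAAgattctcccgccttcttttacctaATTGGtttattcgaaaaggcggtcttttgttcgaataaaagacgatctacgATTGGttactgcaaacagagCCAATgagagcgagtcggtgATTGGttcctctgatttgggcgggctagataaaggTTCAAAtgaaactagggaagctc
Mcm6, chr1:128359706-128359955, minus strand: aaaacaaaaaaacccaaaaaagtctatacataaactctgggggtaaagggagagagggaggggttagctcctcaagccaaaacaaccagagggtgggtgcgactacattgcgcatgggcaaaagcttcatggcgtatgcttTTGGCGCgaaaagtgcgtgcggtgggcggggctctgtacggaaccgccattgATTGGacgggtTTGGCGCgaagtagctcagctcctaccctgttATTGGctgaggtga
Ccne1, chr7:38107491-38107740, minus strand: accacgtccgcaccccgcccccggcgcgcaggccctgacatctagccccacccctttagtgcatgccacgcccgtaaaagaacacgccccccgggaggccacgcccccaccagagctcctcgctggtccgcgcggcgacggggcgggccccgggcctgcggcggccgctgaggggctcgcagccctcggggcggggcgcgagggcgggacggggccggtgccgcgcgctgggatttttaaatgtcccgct

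Ube2c and Top2a each held 6 CCAAT matches, of which a pair in Ube2c overlap each other. The 3 mitotic genes Ube2c, Cdc20 and Top2a each had a TTTGAA match near the start, at 29 to 24 bases before it in Ube2c, 18 to 13 in Cdc20 and 23 to 18 in Top2a. Top2a held another at 179 to 174. Mcm6, a replication gene, had 2 E2F cores and 2 CCAAT boxes, and Ccne1 had none of these letters in its window. Promoter windows were found for 34 of the 43 genes, as 36 windows. CCAAT was in 80.6% of these windows, against 33.8% of all 32851 windows of the same length. TTTGAA was in 25% against 16%, and an E2F core was in 25% against 5.62%. These matches describe letters in a window and were not measured as binding.

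The arrays had near-equal distributions, as the authors' normalization makes them, with medians between 4.46 and 4.52 log2 units. The 3 array control probe sets for 18S ribosomal RNA averaged 8.44 in ZnR mouse 3 and 9.09 in control mouse 1, while the remaining 4 arrays had 10.9 to 12.4. These 2 arrays, 1 of each diet, are called the low-18S pair, and differences are also given inside the pair and outside it. In the labels, the array of control mouse 1 has a file name of a different form from the others, so whether it was handled apart cannot be told. A probe set was kept if 3 or more of the 6 arrays read above 4, which left 25381, and these were fitted together in limma. Of them, 373 passed a Benjamini-Hochberg adjusted p of 0.05, that is 1.47%, with 117 higher (0.461%) and 256 lower (1.01%) in ZnR mice.

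Of the 99 probe sets, 56 were kept, and they read 31 of the 42 genes. On average 48 of the 56 were higher and 8 lower in ZnR mice, where 53.6% of all kept probe sets were higher. The 3 ZnR values lay wholly above the 3 control values for 37 of the 56 and wholly below for 2, while over all kept probe sets these shares were 13.1% and 10.6%. Past the adjusted threshold were 4, of which 3 were higher, in Ube2c, Cdc20 and Mcm6, and 1 was lower, in Ccne1. With 1 mouse left out at a time, 2 passed without ZnR mouse 7, 1 without control mouse 1 and 0 without any of the other 4. None of the 56 had every control array under the level. For 10 of them, however, the 3 ZnR arrays met the rule by themselves. These 10 were above the level on only 1 (2 probe sets) or 2 (8 probe sets) control arrays. Such probe sets are kept more easily when ZnR is higher.

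With each gene read by its kept probe set of highest mean, the median log2 difference, ZnR minus control, was 0.42 over the 31 genes, against 0.03 over all 11749 genes read the same way. Of the 31, 27 were higher on average, against 57.6% of all genes. The diets did not overlap for 21 genes that were higher and 1 that was lower, where all genes gave 16.5% and 11.1%. A difference of at least 0.4 was reached by 17 of the 31, against 5.09% of all genes. Among the 17, and among the 27, were Ccnb2, Cdk1, Birc5, Cenpf, Nusap1 and Prc1. These genes are read by probe sets for which the ZnR arrays met the level rule by themselves, which favours higher ZnR values. Of them, Ccnb2, Cdk1, Birc5 and Nusap1 were also among the 21 without overlap. In bulk tissue, fewer cells of a type and less RNA per cell cannot be told apart.

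**Figure D1:**
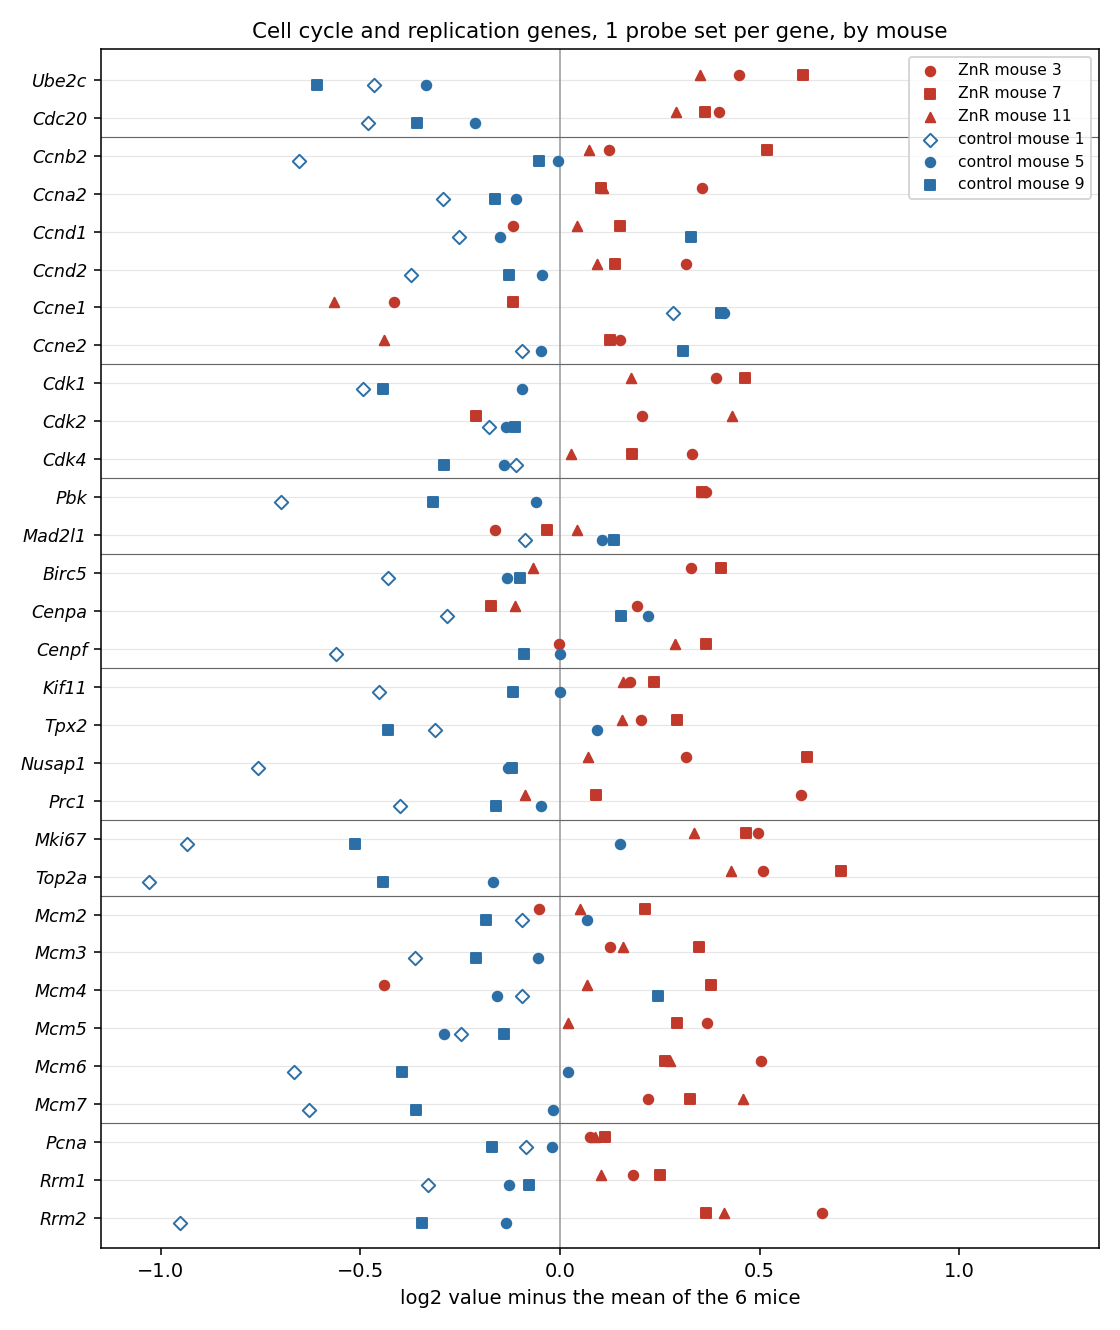
Each row is 1 of the 31 cell cycle and replication genes measured, grouped by role, and each point is 1 mouse; the horizontal axis is the log2 value minus the gene's mean over the 6 mice. ZnR mice (red) lie right of all controls (blue) in 21 rows and left of them in Ccne1, and control mouse 1 (open diamond) is the lowest array in 20 rows.

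Control mouse 1 had the lowest value of all 6 mice in 20 of the 31 genes, against 23% of all genes. Leaving it out lowered the median difference to 0.325, with 25 of the 31 genes still higher on average. The 3 ZnR values then lay above both other controls in 21 genes and below both in 2. Over all 11749 genes, 22.6% lay above both and 1748 genes lay below both. The median difference was 0.63 in the low-18S pair and 0.32 outside it, where 27 of 31 genes were higher. Any part of array quality in the differences of control mouse 1 was not tested.

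Both genes of mitotic exit separated the diets. Ube2c encodes the ubiquitin-conjugating enzyme that works with the anaphase-promoting complex. It measured 5.33, 5.49 and 5.23 log2 units in ZnR mice 3, 7 and 11, against 4.41, 4.54 and 4.27 in control mice 1, 5 and 9. The lowest ZnR mouse was well above the highest control, and the mean was 1.92-fold higher (log2 difference 0.94 ± 0.11 SE). The difference was 0.92 in the low-18S pair, 0.95 outside it and 0.94 without control mouse 1.

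Cdc20 encodes the activator that brings substrates to the same complex. Its probe set of highest mean read 5.80, 5.76 and 5.69 in ZnR mice and 4.92, 5.18 and 5.04 in controls, which did not overlap (0.70 ± 0.10 SE, 1.63-fold). That probe set carries the suffix x, which marks probes that may bind other transcripts. A further Cdc20 probe set without that suffix was also higher with no overlap, by 0.42 ± 0.16 SE. Another Cdc20 probe set was below the level filter and differed by 0.03.

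Both genes of chromosome structure in division were higher in ZnR mice, with the widest ranges among controls of the 31 genes. Top2a encodes topoisomerase II alpha, which untangles DNA before chromosomes part. It measured 6.08, 6.27 and 5.995 in ZnR mice, against 4.54, 5.40 and 5.12 in controls. All ZnR mice were above all controls, and the difference of 1.09 ± 0.21 SE (2.13-fold) was the largest of the 31. Its other probe sets were below the level filter and each differed by 0.17 with overlap. Mki67, which encodes the Ki-67 protein used to stain dividing cells, read 5.87, 5.84 and 5.71 in ZnR mice and 4.44, 5.52 and 4.86 in controls. The 3 ZnR mice were close together while controls spanned more than 1 log2 unit, with control mouse 1 lowest and control mouse 5 nearest to the ZnR mice. Without control mouse 1 the differences were 0.61 in Mki67 and 0.85 in Top2a, against 0.87 and 1.09 with all mice.

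Among the cyclins the mitotic and S phase members were higher and cyclin E1 was lower. Ccnb2, a mitotic cyclin gene, measured 4.57, 4.96 and 4.52 in ZnR mice and 3.79, 4.44 and 4.39 in controls. The diets did not overlap, but control mouse 1 stood well below the rest, and the difference of 0.47 ± 0.20 SE was 0.27 without it. Ccna2, the cyclin A2 gene of S phase and early mitosis, read 5.34, 5.09 and 5.10 in ZnR mice, against 4.69, 4.88 and 4.82 in controls. Its other probe set was also higher without overlap, and the differences were 0.38 ± 0.10 and 0.46 ± 0.10 SE.

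Ccne1 encodes cyclin E1, the partner of Cdk2 at the entry to S phase. It measured 4.87, 5.17 and 4.72 in ZnR mice, against 5.57, 5.70 and 5.69 in controls. The 3 controls were almost level and all ZnR mice were below them, with a mean 1.66-fold lower (log2 difference -0.73 ± 0.13 SE). The other Ccne1 probe set was lower as well, with no overlap (-0.41 ± 0.11 SE). The difference was -0.70 in the low-18S pair and -0.75 outside it. Ccne2, which encodes the related cyclin E2, differed by -0.11 ± 0.18 SE with overlapping mice.

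The D cyclins link growth signals to the start of the cycle. Ccnd1 read 8.19, 8.45 and 8.35 in ZnR mice, against 8.05, 8.16 and 8.63 in controls. The mice overlapped, and the 3 Ccnd1 probe sets differed by -0.12 to 0.05. Ccnd2, which is expressed in forebrain progenitors, measured 10.9, 10.7 and 10.6 in ZnR mice and 10.2, 10.5 and 10.4 in controls (0.36 ± 0.11 SE). All 7 Ccnd2 probe sets were higher on average, by 0.11 to 0.48, and 4 of them had no overlap.

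The kinases that cyclins activate were higher on average, each to a different extent. Cdk1, the kinase of mitosis, measured 4.63, 4.70 and 4.41 in ZnR mice, against 3.74, 4.14 and 3.79 in controls (0.69 ± 0.13 SE, 1.61-fold). No mice overlapped, though all values were near the level filter, and 2 of the 3 controls were below it. Cdk4, the partner of the D cyclins, read 7.99, 7.84 and 7.68 in ZnR mice and 7.55, 7.52 and 7.37 in controls, and all 3 of its probe sets were higher with no overlap, by 0.36 to 0.50. Cdk2 overlapped between the diets, with a difference of 0.28 ± 0.16 SE, and leaving out ZnR mouse 7 raised it to 0.46 while leaving out ZnR mouse 11 lowered it to 0.14.

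Of 8 genes for mitotic kinases and the spindle checkpoint, which delays anaphase until chromosomes are attached, only Pbk and Mad2l1 had a kept probe set. Pbk encodes a kinase of dividing cells. It measured 6.09, 6.08 and 6.08 in ZnR mice, against 5.02, 5.66 and 5.41 in controls. The ZnR mice were nearly identical and above every control, and the difference was 0.72 ± 0.15 SE (1.65-fold), or 0.55 without control mouse 1. Mad2l1, a checkpoint gene, differed by -0.10 ± 0.10 SE with overlapping mice.

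Genes of the centromere and of the passenger complex, which corrects faulty attachments, were mixed. Birc5, which encodes survivin, read 4.57, 4.64 and 4.17 in ZnR mice and 3.81, 4.11 and 4.14 in controls. ZnR mouse 11 was only just above control mouse 9, and the difference was 0.44 ± 0.15 SE. Cenpf, a kinetochore gene, read 4.47, 4.84 and 4.76 in ZnR mice, against 3.91, 4.47 and 4.38 in controls (0.43 ± 0.17 SE, or 0.26 without control mouse 1). ZnR mouse 3 and control mouse 5 were level. Cenpa, the gene of the centromeric histone variant, differed by -0.06 ± 0.16 SE, with 0.47 in the low-18S pair and -0.33 outside it.

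All 4 measured genes for spindle motors and microtubule bundlers were higher on average. Nusap1, which bundles spindle microtubules, measured 4.90, 5.20 and 4.65 in ZnR mice, against 3.83, 4.45 and 4.46 in controls (0.67 ± 0.21 SE, 1.59-fold). Kif11, the motor that pushes spindle poles apart, read 4.66, 4.72 and 4.64 in ZnR mice and 4.03, 4.48 and 4.37 in controls (0.38 ± 0.12 SE, or 0.25 without control mouse 1). In both genes control mouse 1 was lowest, and the diets did not overlap. Tpx2, an activator of Aurora A at the spindle, read 4.80, 4.88 and 4.75 in ZnR mice, against 4.28, 4.69 and 4.16 in controls (0.43 ± 0.14 SE), and did not overlap either. Prc1, which cross-links the midzone of the spindle, read 4.82, 4.31 and 4.13 in ZnR mice and 3.82, 4.17 and 4.06 in controls. ZnR mouse 11 was below control mouse 5 in this probe set, which differed by 0.41 ± 0.18 SE, by 0.21 without ZnR mouse 3 and by 0.11 outside the low-18S pair. The second Prc1 probe set had no overlap and differed by 0.63 ± 0.13 SE.

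**Figure D2:**
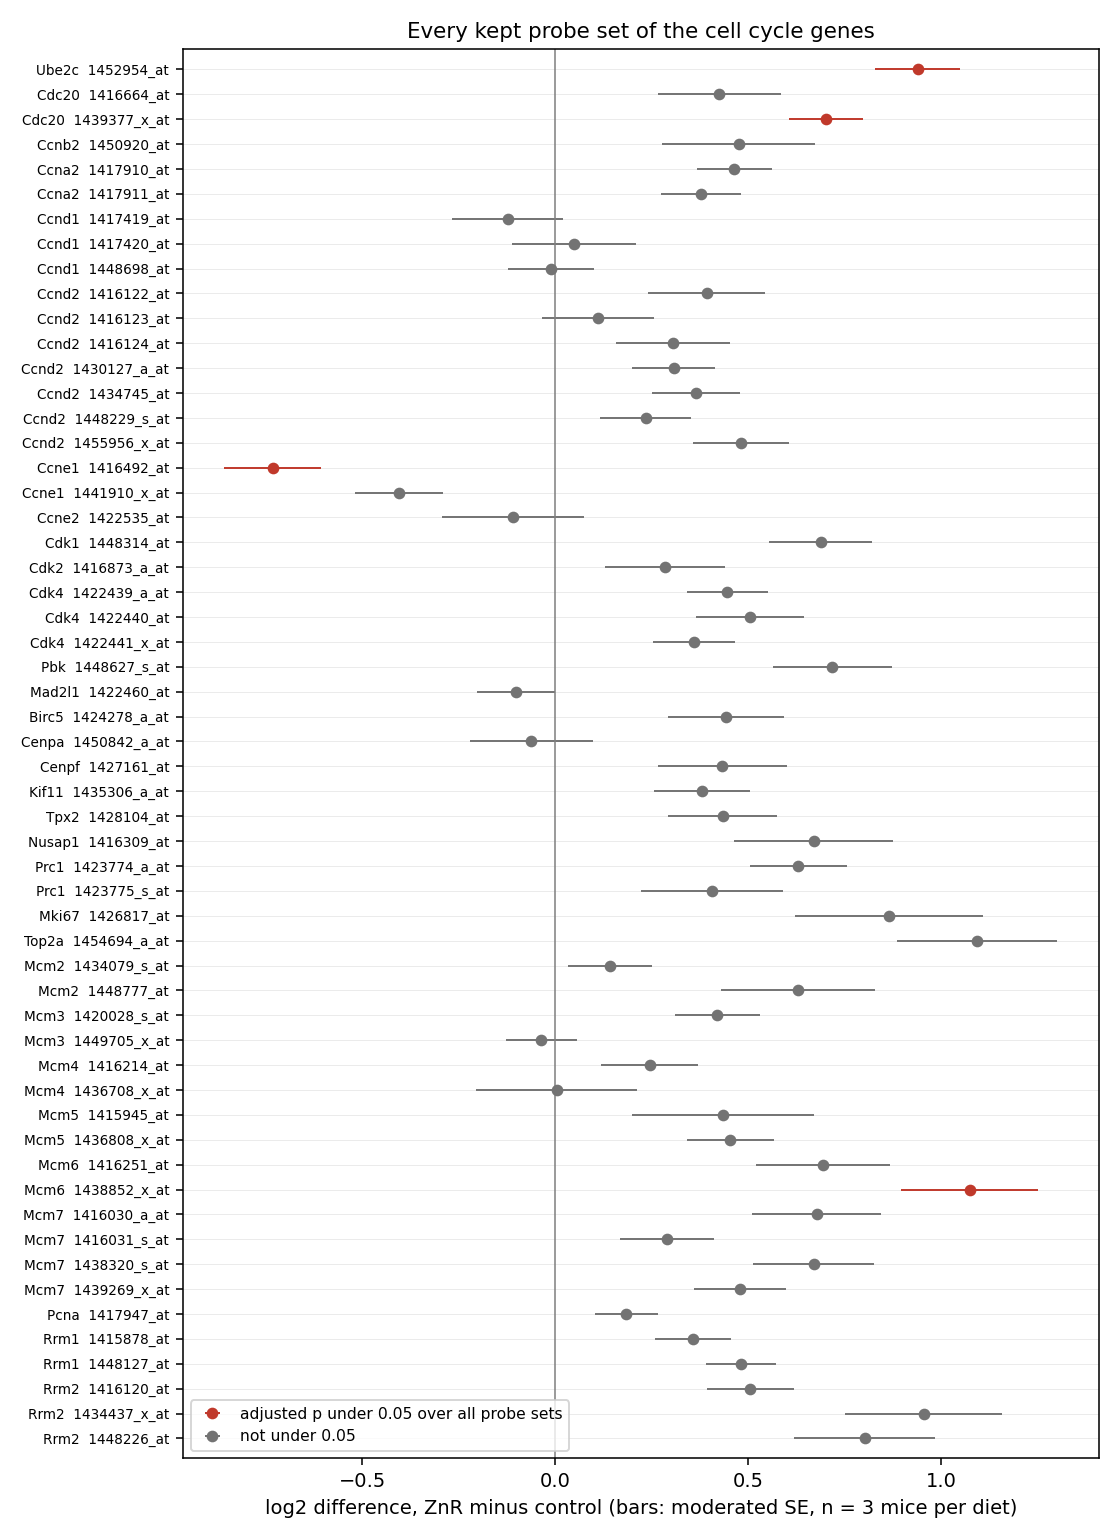
Each row is 1 of the 56 kept probe sets of the cell cycle and replication genes; the point is the log2 difference, ZnR minus control, and the bar its moderated standard error (3 mice per diet). The 4 red points are the probe sets past the adjusted threshold over all probe sets, 3 to the right of 0 and that of Ccne1 to the left.

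The MCM genes encode the 6 subunits of the helicase ring that is loaded on DNA before replication. Mcm6 measured 5.73, 5.49 and 5.51 in ZnR mice, against 4.57, 5.25 and 4.84 in controls (0.69 ± 0.17 SE, 1.62-fold). Its second kept probe set, which may bind other transcripts by its suffix, read 5.55, 5.92 and 5.39 in ZnR mice and 4.24, 4.66 and 4.74 in controls, a difference of 1.07 ± 0.18 SE. Neither overlapped, and the size of the Mcm6 difference depended on the probe set. Mcm7 read 7.45, 7.55 and 7.68 in ZnR mice, against 6.60, 7.21 and 6.86 in controls (0.67 ± 0.16 SE). All 4 Mcm7 probe sets were higher with no overlap, by 0.29 to 0.68.

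Mcm3 and Mcm5 were higher by a smaller margin. Mcm3 read 4.98, 5.20 and 5.01 in ZnR mice and 4.49, 4.80 and 4.64 in controls (0.42 ± 0.11 SE), although its other kept probe set differed by -0.04. Mcm5 read 6.09, 6.01 and 5.74 in ZnR mice, against 5.47, 5.43 and 5.58 in controls (0.45 ± 0.11 SE). Neither gene overlapped between the diets in the probe sets of highest mean. The other kept Mcm5 probe set differed by 0.43 ± 0.235 SE with overlap. Its difference was 1.2965 in the low-18S pair and 0.004 outside it. Mcm2 differed by 0.14 in the probe set of highest mean and by 0.63 in the other, which alone had no overlap. Mcm4 read 7.37, 8.19 and 7.88 in ZnR mice and 7.72, 7.65 and 8.06 in controls, a difference of 0.0031 ± 0.21 SE, and its other probe set differed by 0.24 with overlap. ZnR mouse 3 was the lowest and ZnR mouse 7 the highest of the 6 mice in the first of these.

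Genes for the DNA clamp and for the supply of DNA building blocks were higher without overlap where they were measured. Rrm2, the regulated subunit of ribonucleotide reductase, measured 7.33, 7.04 and 7.08 in ZnR mice, against 5.72, 6.53 and 6.33 in controls (0.95 ± 0.20 SE, 1.94-fold). All 3 Rrm2 probe sets were higher with no overlap, by 0.51 to 0.95, and control mouse 1 was far below the rest in the first. That probe set differed by 1.61 in the low-18S pair and by 0.63 outside it. Rrm1, the large subunit of the same enzyme, read 6.75, 6.82 and 6.67 in ZnR mice, against 6.24, 6.44 and 6.49 in controls. It differed by 0.36 ± 0.10 SE, and its second kept probe set by 0.48 ± 0.09 SE.

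Pcna, the sliding clamp of DNA polymerase, which also serves in DNA repair, read 10.94, 10.98 and 10.95 in ZnR mice and 10.78, 10.85 and 10.70 in controls. The difference was small, 0.18 ± 0.08 SE or 1.14-fold, but the diets did not overlap.

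For 11 genes no probe set was kept: Aurka, Aurkb, Plk1, Bub1, Bub1b and Ttk among mitotic kinases, the motor genes Cenpe, Kif20a and Kif23, and Tyms and Tk1 of thymidine supply. Their 23 probe sets ran from 1.98 to 4.17 log2 units, all near or under the level filter. On average 21 of the 23 were higher in ZnR mice. The diets did not overlap for 8, all higher, and none was lower without overlap; among all unkept probe sets these shares were 5.94% and 5.68%. Bub1, a checkpoint kinase, read 4.17, 3.85 and 3.61 in ZnR mice and 2.88, 3.36 and 3.02 in controls. Aurkb, the kinase of the passenger complex, read 3.59, 3.55 and 3.51 in ZnR mice, against 2.99, 2.95 and 2.94 in controls. These 2 probe sets had the largest differences among those of the 11 genes, 0.79 and 0.59. The other Bub1 probe set differed by 0.11 and the other Aurkb probe set by 0.31, both with overlapping diets.

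Where a gene had several kept probe sets, they mostly pointed the same way. Of 15 such genes, 13 had probe sets of 1 sign and 2, Ccnd1 and Mcm3, had both signs. Probe sets below the level filter were left out of this count. Those of Cenpf differed by 0.03 and -0.03, that of Nusap1 by 0.14, and those of Kif11 by 0.28 and 0.12. Those of Tpx2 differed by 0.42, 0.04 and -0.04.

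**Figure D3:**
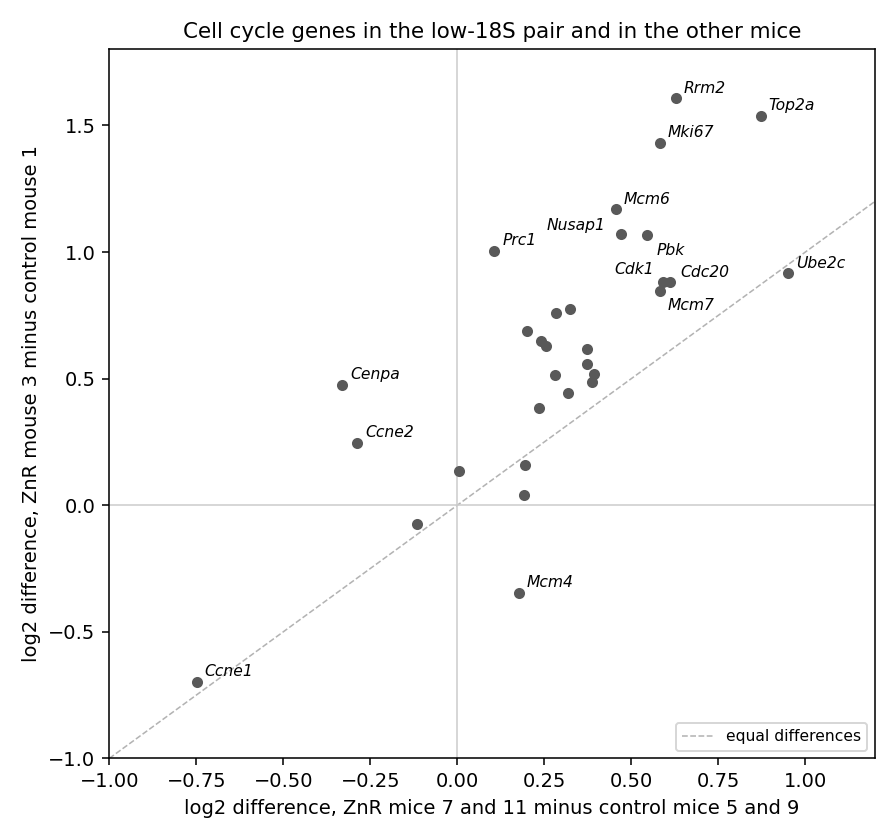
Each point is 1 of the 31 measured cell cycle and replication genes; the horizontal axis is the log2 difference between ZnR mice 7 and 11 and control mice 5 and 9, and the vertical axis that between ZnR mouse 3 and control mouse 1. Rrm2, Top2a and Mki67 differed most within the low-18S pair (1.61, 1.54 and 1.43), Ube2c and Ccne1 lie near the line of equal differences, and Cenpa, Ccne2 and Mcm4 change sign.

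A further list, also chosen with earlier results of these data known, held 142 genes of the same processes that are not among the 43. Of these, 99 were measured. Their median difference was 0.12, between the 0.42 of the 31 genes above and the 0.03 of all genes. On average 75 were higher and 24 lower, where 57.6% of all genes were higher. One passed the threshold, higher, and 98 did not, where 0.655% of all genes passed as higher, 1.27% as lower and 1.92% in either direction. At an unadjusted p under 0.05 there were 30 of the 99, against 18.8% of all genes. Without overlap were 28 genes that were higher and 3 that were lower, against 16.5% and 11.1% of all genes. Among the 28 was Cdt1, which only the ZnR arrays kept, all controls being under the level. Melk, Rbl1 and Nuf2 were also among the 28. In each, control mouse 1 was under the level and the ZnR arrays met the rule by themselves.

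The gene that rose was Cdca8, which encodes borealin, a partner of survivin and Aurora B in the passenger complex. It measured 5.02, 5.25 and 5.24 in ZnR mice, against 4.35, 4.68 and 4.51 in controls. All ZnR mice were above all controls, and the rise was 1.58-fold (0.66 ± 0.12 SE, limma adjusted p = 0.046). It did not pass when any 1 mouse was left out, although the difference stayed between 0.58 and 0.74. Over all alternatives its adjusted p ran from 0.0185 to 0.139. Nuf2 of the kinetochore measured 0.65 ± 0.14 SE with adjusted p = 0.0776 in limma.

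For the remaining genes of this list the value given is the log2 difference, ZnR minus control. Among genes of the anaphase-promoting complex, Fbxo5, its inhibitor before mitosis, measured 0.66 ± 0.13 SE (limma adjusted p = 0.0603). The core subunit Cdc23 measured 0.30 ± 0.11 SE (adjusted p = 0.219), but its other probe set -0.09. In G1 control Rbl1, a relative of the retinoblastoma gene, measured 0.77 ± 0.16 SE (adjusted p = 0.0672), with ZnR mice at 5.03 to 5.05 and controls at 3.90 to 4.59. Cdkn1a, which encodes the cyclin-dependent kinase inhibitor p21, measured -0.33 ± 0.09 SE (adjusted p = 0.143), and its other probe set -0.09. Of the condensin and separase regulators, Smc4 measured 0.50 ± 0.11 SE (adjusted p = 0.0658) and Pttg1, the securin gene, 0.57 ± 0.12 SE (adjusted p = 0.0731). Their other probe sets measured 0.32 and 0.37 in Smc4 and 0.22 in Pttg1.

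The other roles follow in the same way. In mitotic entry the kinase gene Melk measured 0.41 and the phosphatase gene Cdc25a 0.26, with 0.09 in its other probe set. Among origin licensing genes Cdt1, which helps load the MCM ring, measured 0.40. It read 4.36, 4.26 and 4.01 in ZnR mice and 3.60, 3.93 and 3.89 in controls. All controls were under the level, so Cdt1 was kept only because ZnR was higher. Orc3, of the origin recognition complex, measured 0.27, while other Orc3 probe sets measured 0.05 and 0.14. At the replication fork Rfc3, a clamp loader subunit, measured 0.49 (0.20 in its other probe set) and the polymerase delta gene Pold1 0.35. In nucleotide supply Dut, which clears dUTP, measured 0.31, with 0.09 in its other probe set. The deoxycytidine kinase gene Dck measured -0.28, with -0.04 and -0.08 in its others. Among spindle and cytokinesis genes Spag5 measured -0.33 and Ect2, which starts the cleavage furrow, 0.61. None of these 10 passed, with limma adjusted p from 0.105 for Spag5 to 0.265 for Dck.

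**Figure D4:**
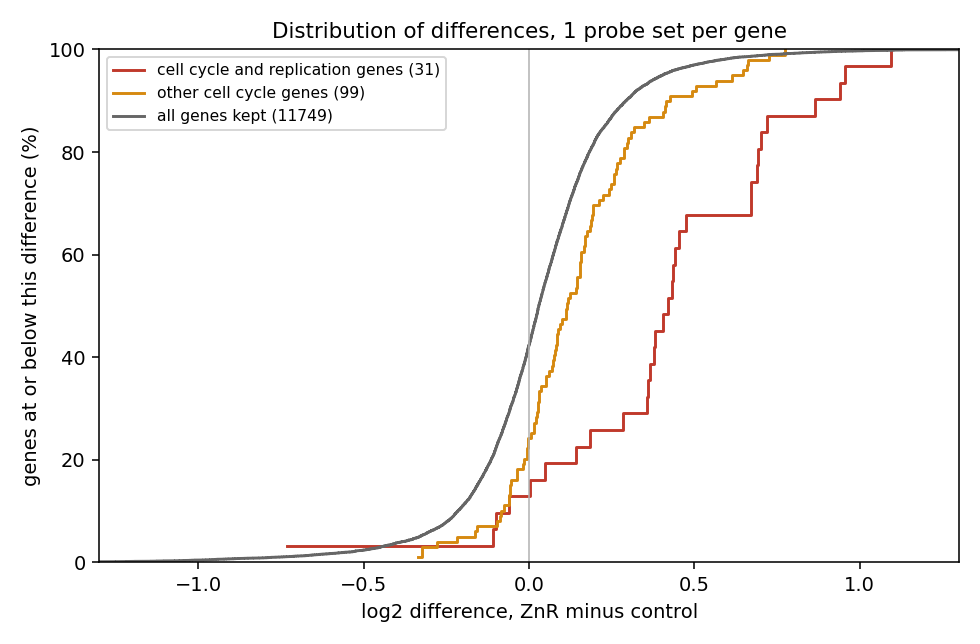
Cumulative share of genes (vertical axis, %) at or below each log2 difference, ZnR minus control (horizontal axis), for the 31 measured cell cycle and replication genes (red), 99 further genes of these processes (orange) and all 11749 genes (grey). The medians are 0.42, 0.12 and 0.03; the red genes were chosen with these differences known.

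Marker lists of cell types that the tissue could hold, also chosen with earlier results of these data known, were read on the same arrays. For each list, a mouse's mean was taken after centring each gene on its mean over the 6 mice. The 31 cell cycle genes gave 0.22, 0.26 and 0.12 in ZnR mice 3, 7 and 11, against -0.40, -0.05 and -0.15 in control mice 1, 5 and 9. All ZnR mice were above all controls, with control mouse 1 lowest. Values of single marker genes are log2 differences, ZnR minus control.

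Of 12 genes of subventricular zone progenitors and young neurons, 11 were measured. All 11 were higher on average, 7 of them with no overlap, and none passed the threshold in limma. Over all genes 57.6% were higher on average, 16.5% were higher with no overlap and 0.655% passed as higher. The list gave 0.14 to 0.24 in ZnR mice and -0.395 to -0.07 in controls, with control mouse 1 again lowest. Dlx2, a homeobox gene of forebrain progenitors and young interneurons, measured 0.57 ± 0.12 SE (limma adjusted p = 0.0636), and Dlx5 0.50 ± 0.11 SE (adjusted p = 0.0722). Oligodendrocyte precursor genes, all 7 measured and all higher on average, gave 0.06 to 0.27 in ZnR mice, against -0.18 to -0.14 in controls. Of these, 5 had no overlap, against the same 16.5% of all genes, and none passed; Gpr17 measured 0.34 ± 0.09 SE (adjusted p = 0.118) and Olig2 0.63 ± 0.20 SE (adjusted p = 0.169).

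The 8 measured of 10 genes of choroid plexus and ependyma, the cells that line the ventricles, gave 0.39 to 0.54 in ZnR mice and -0.98 to -0.11 in controls. Tmem212 rose by 1.44 ± 0.23 SE (limma adjusted p = 0.0374) and Clic6 by 1.53 ± 0.26 SE (adjusted p = 0.0433), while 6 did not pass. For this list and the striatal and astrocyte lists below, the share of all genes that passed as higher was 0.655%. The other Clic6 probe set rose by 0.59 ± 0.09 SE (limma adjusted p = 0.0325). The choroid plexus genes Folr1 and Kcnj13 were below the level filter. Ttr, another choroid plexus gene, read 3.15 to 5.36 with overlapping diets (0.66 ± 0.46 SE, limma adjusted p = 0.529). Ccdc153 of the same list had all controls under the level and was kept only because ZnR was higher. Striatal medium spiny neuron genes (8 of 10 measured) gave 0.17 to 0.39 in ZnR mice, against -0.50 to -0.06 in controls, and Gpr6 (0.58 ± 0.08 SE, adjusted p = 0.0275) and Drd2 (0.89 ± 0.16 SE, adjusted p = 0.046) rose. Astrocyte genes gave 0.08 to 0.15 in ZnR mice and -0.17 to -0.06 in controls, and Gfap alone of 8 rose (0.79 ± 0.10 SE, adjusted p = 0.0214), with Aldh1l1 at 0.37 (adjusted p = 0.119).

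For microglia and endothelial genes, the other sources of dividing cells listed, the list means of the diets overlapped. All 6 measured microglia genes were lower on average, each with overlap. Of 7 endothelial genes, 6 were higher on average and 1, Cldn5, was higher with no overlap. Over all genes 57.6% were higher on average and 16.5% were higher with no overlap. Microglia genes gave -0.12 to 0.06 in ZnR mice and 0.01 to 0.12 in controls, with P2ry12 at -0.16 and Csf1r at -0.12. Endothelial genes gave -0.10 to 0.15 in ZnR mice, against -0.12 to -0.01 in controls, with Cldn5 at 0.34 and Pecam1 at 0.24. None of the 13 measured genes of both lists passed, where 1.92% of all genes passed in either direction. Cortical excitatory neuron genes were measured for 6 of 7 and were lower, at -0.57 to -0.36 in ZnR mice, against 0.38 to 0.53 in controls. Genes of both cortex and striatum read well above the level filter on every array. Cortical Slc17a7 read 8.86 to 10.3, and striatal Drd1 read 10.3 to 11.2 and Drd2 8.26 to 9.62. Whether the samples held tissue from outside the labelled region was not tested. Of the 6, 5 fell, where 1.27% of all genes passed as lower. They were led by Nrn1 (-1.27 ± 0.10 SE, limma adjusted p = 0.00624) and Slc17a7 (-1.08 ± 0.12 SE, adjusted p = 0.0182). With 1 mouse left out at a time, the calls of Gpr6 and Drd2 were lost each time, that of Gfap in all but 1 case (without ZnR mouse 7), and those of Tmem212 and Clic6 in all but 1 (without control mouse 1). That of Slc17a7 was lost without ZnR mouse 3, ZnR mouse 11 or control mouse 5, and that of Nrn1 without control mouse 5, and no difference changed sign. The part of any of these cell populations in the cell cycle differences was not tested.

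**Figure D5:**
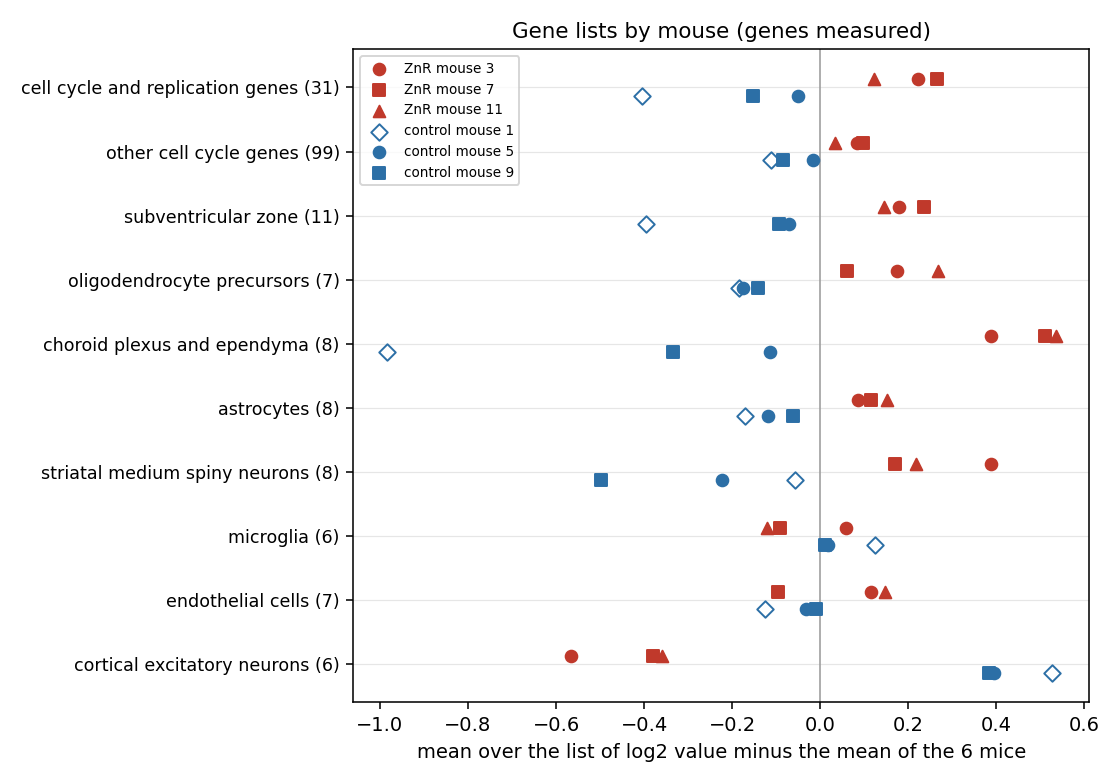
Mean over each gene list of the log2 value minus the gene's mean over the 6 mice (horizontal axis), with 1 point per mouse; the number of genes measured is in brackets. ZnR mice (red) lie right of controls (blue) for the cell cycle, subventricular zone, oligodendrocyte precursor, ventricle-lining, astrocyte and striatal lists, and left of them for cortical excitatory neurons.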

How the data were processed

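Total RNA (500 ng per mouse) was labelled with the Affymetrix 3′ IVT Express kit, per the labels' protocols. The authors deposited log2 values, 1 per probe set and mouse. The submitters' processing notes name R 2.15.1 and GCRMA 2.28.0. GCRMA adjusts for background using probe base content and makes array distributions alike before summarising, so a change in total RNA cannot be seen and low values can be compressed. Genes were named from the platform annotation.

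The cell cycle genes, the further lists and the rule for naming genes were chosen with earlier results of these data known. Members were described with every mouse's value where the diets did not overlap, the difference reached 0.4 or the mean was among the 6 highest; further genes were those past the threshold and up to 2 per list by smallest p. The 64 array controls were left out. The diets were compared by limma 3.58.1 under R 4.3.3, two-sided and without covariates. SE are moderated, and p-values rest on 3 mice per diet. On simulated data with 25381 probe sets the fit recovered 15 of 50 changes of 0.5, 42 of 50 of 1 and 49 of 50 of 2, with 9 false calls. Alternatives covered filter, normalization, variance prior (statmod 1.5.0), array weights, low-18S pair, probe set choice and each mouse. Plots used Python 3.11.15 and matplotlib 3.10.9.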

Additional observations from a re-analysis of the deposited data

How the results depend on the processing

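The number of arrays limits the precision. Over all probe sets 373 of 25381 passed the threshold. There were 916 with a mean-variance trend, 2003 with array weights, 550 with a block for the low-18S pair and 3 without moderation of variances. With the level set at 6, 501 of 16485 passed. Without the low-18S pair 1 passed. When a mouse was left out, 1 (without control mouse 5) to 109 (without ZnR mouse 7) passed. For the cell cycle genes, 4 of 56 probe sets passed, against 12 with the trend, 11 with array weights and 8 with the block. With the level set at 6, only 21 of their probe sets were tested, and 1 passed. Without the low-18S pair 0 passed, and 0 to 2 passed when a mouse was left out. Of the further cell cycle genes 1 passed, against 3 with the trend, 8 with array weights, 4 with the block, 6 with all kept probe sets of a gene averaged, 0 without the pair and 0 to 1 when a mouse was left out. The causes were not tested, except that fits without mice have fewer samples. The median difference of the cell cycle genes stayed between 0.31 (array weights) and 0.48 (without control mouse 5). Under all alternatives run, 27 of the 31 cell cycle genes kept the sign of their difference, while Ccnd1 (-0.07 to 0.23), Ccne2 (-0.29 to 0.08), Cenpa (-0.33 to 0.03) and Mcm4 (-0.18 to 0.22) did not. The endothelial gene Pecam1, which did not pass, changed sign to -0.0244 with array weights. No paired analysis was run, because the mouse numbers in the labels pair no mice of different diets.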
